A study of Mus musculus with 11 samples.

Results

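Cellular iron balance depends on a small set of proteins, and 9 of their genes are described here: Slc40a1, Slc11a1, Slc11a2, Tfrc, Fth1, Ftl1, Cp, Aco1 and Ireb2. They were chosen by name for their role in iron uptake, storage, export or its control, and all 9 were found among the 22068 gene symbols of the files. RNA was sequenced from 11 libraries of myeloid cells that carry CD11b (a surface integrin found on macrophages and neutrophils, and on other phagocytes), taken from subcutaneous tumours of C57BL/6 mice. In each of the 3 groups the tumour had received 15 Gy of local irradiation and was collected at day 4. The groups were wild type (WT, n = 3), TLR9KO (n = 4), which lacks the endosomal DNA receptor Tlr9, and STAT3KO (STAT3-/-, MxCre/Stat3flox, n = 4), in which Cre recombinase under the interferon-inducible Mx promoter removes the floxed part of the transcription factor gene Stat3. The Mx promoter is not restricted to myeloid cells, so other tissues of these mice can carry the deletion as well. Sources used here do not name the tumour line, the age of the mice or how Cre was induced, and no unirradiated group was analysed here. The labels do not say that replicates are separate animals, so p-values measure only the spread between these libraries, which may be technical.

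Cells take up transferrin-bound iron through the transferrin receptor and move it out of the endosome through a divalent metal transporter. Ferritin cages store iron in the cytosol, ferroportin exports it, and ferroxidases such as ceruloplasmin oxidise it for loading onto transferrin. The iron regulatory proteins IRP1 and IRP2 bind hairpins in the messenger RNAs (iron-responsive elements) when iron is scarce; a hairpin near the 5′ end then blocks translation, and hairpins after the coding region protect the message from decay. Macrophages are known for recycling iron from engulfed red cells, in which heme oxygenase frees iron that is then stored or exported.

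The hairpins are shown because 4 of the 9 members held a match to a strict form of them, which links these members to the same control circuit. A search of the annotated mouse transcripts (GENCODE M21, build GRCm38, which is not the mm9 build of the deposited values) looked on the transcript strand for C, any 5 bases, CAGTGN and 5 bases that pair with the first 5, allowing A-T, G-C and G-T pairs. The letters were found in Fth1, Ftl1, Slc40a1 and Tfrc. In each line the capitals mark the 6-base loop, with 5 flanking bases printed outside the paired stem and its bulged C on either side.
Fth1 5′ UTR: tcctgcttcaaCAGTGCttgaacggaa
Ftl1 5′ UTR: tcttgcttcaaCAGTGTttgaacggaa
Slc40a1 5′ UTR: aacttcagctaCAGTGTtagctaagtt
Tfrc 3′ UTR site a: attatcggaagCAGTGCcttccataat
Tfrc 3′ UTR site b: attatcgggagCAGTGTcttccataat
Tfrc 3′ UTR site c: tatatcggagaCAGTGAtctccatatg
Tfrc 3′ UTR site d: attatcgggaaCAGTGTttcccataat
The Fth1 site lies at chr19:9982733-9982759 on the plus strand, the Ftl1 site at chr7:45459780-45459806 on the minus strand and the Slc40a1 site at chr1:45925466-45925492 on the minus strand. The Tfrc sites lie on the plus strand at chr16:32631220-32631246, chr16:32631599-32631625, chr16:32631664-32631690 and chr16:32631711-32631737. The Fth1 site was in 4 of its 5 coding transcripts, the Ftl1 site in 1 of 2, the Slc40a1 site in 1 of 4 and the Tfrc sites in 1 of 3, and the deposited values are per gene, so they do not show which transcript was measured. In a search of only the longest coding transcript of each gene, the same letters were found in the 5′ UTR of 20 of 21877 coding genes (0.0914%). They were in the 3′ UTR of 118 (0.539%). The members were searched in all their coding transcripts, which gives more room for a match, so these shares are not a like-for-like background. The other 5 members held no match in their UTRs, which says only that these letters are not in those windows. A hairpin with an unpaired base within the 5 pairs would be missed, so the search does not show that these members lack one.

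Each knockout was checked by its own gene. Stat3 measured 18.2 ± 1.85 RPKM (SD, n = 4) in STAT3KO and 73.1 ± 2.78 RPKM (n = 3) in WT, and Tlr9 was 5.77 ± 1.72 RPKM (n = 4) in TLR9KO and 30.3 ± 10.6 RPKM in WT. RPKM divides a gene's reads by its transcript length in kilobases and by the library's mapped reads. Itgam, which encodes CD11b, averaged 301 RPKM in WT, 242 in TLR9KO and 218 in STAT3KO. Its fall in STAT3KO against WT passed the test (-0.47 on the log2 scale, limma adjusted p = 0.0416), and its other comparisons did not. STAT3KO replicate 2 stood apart from its group, with summed neutrophil markers of 600 RPKM against at most 105 RPKM and summed erythroid markers of 49.9 RPKM against at most 9.53 RPKM in the other STAT3KO libraries. Leaving it out ended 1 of the members' calls, that of Fth1 in STAT3KO against WT (limma adjusted p = 0.0726). Estimated depth was 30.0 to 53.5 M reads, and the fewest reads estimated behind a member's value in any library were 168 for Cp and 222 for Slc40a1. Differences are on the scale of log2(RPKM + 1), with moderated standard errors, and a gene is called where the limma p-value adjusted over all 10557 genes tested is under 0.05. This scale understates changes of low genes such as Cp. The median over all genes tested was 0.10 in STAT3KO minus WT, 0.04 in TLR9KO minus WT and 0.06 in STAT3KO minus TLR9KO on the same log2 scale.

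All 9 members passed the filter of a mean of at least 1 RPKM. In STAT3KO against WT, Slc40a1, Fth1 and Cp rose, Aco1 fell and 5 members did not pass the test, where 44.0% of all genes tested were called (29.2% higher and 14.8% lower), and 4 members did not overlap between the groups, where 47.7% of genes did not. In TLR9KO against WT, Cp and Ireb2 rose, Aco1 fell and 6 members did not pass, where 30.6% of all genes were called (20.0% higher and 10.6% lower), and 3 members did not overlap, where 36.1% of genes did not. In STAT3KO against TLR9KO, Slc40a1, Fth1, Ftl1 and Slc11a1 were higher, Ireb2 was lower and 4 members did not pass, where 22.8% of all genes were called (13.4% higher and 9.46% lower), and 5 members did not overlap, where 27.0% of genes did not. The members' shares in the comparisons with WT, 4 of 9 and 3 of 9, were near those of all genes and are no result about iron genes. The 5 of 9 in STAT3KO against TLR9KO stood above the 22.8% of all genes, a difference that was not tested. Of these 5 calls, those of Slc11a1 and Ftl1 were lost with a correction for GC content and length. Those of Slc11a1, Fth1 and Ftl1 were lost without the filter. The 2 comparisons with WT share the WT libraries, and the 2 that involve STAT3KO share the STAT3KO libraries.

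**Figure D1:**
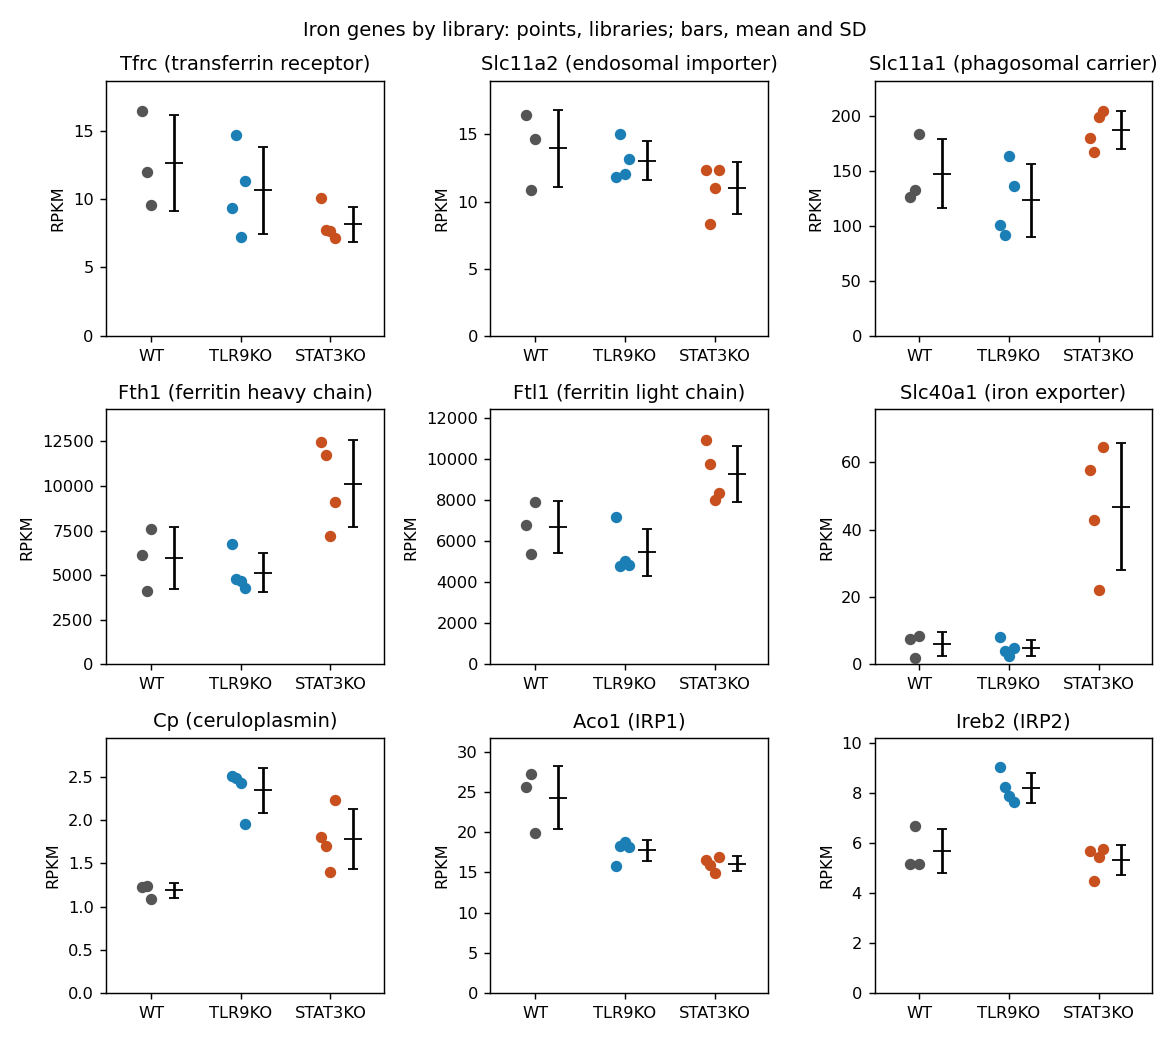
RPKM of each iron gene by library, with each point a library (WT, n = 3; TLR9KO and STAT3KO, n = 4) and bars giving the mean and SD, on a linear axis from 0 that differs between panels. Slc40a1 is 22 to 64.6 RPKM in STAT3KO and at most 8.40 RPKM elsewhere, and Cp and Ireb2 have their highest group mean in TLR9KO.

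Slc40a1 encodes ferroportin, the known cellular iron exporter of mammals, and had the widest ratio between group means among the 9 members. Its level was 7.62, 1.89 and 8.40 RPKM in the WT libraries, 8.23, 3.87, 2.59 and 4.94 RPKM in TLR9KO, and 57.6, 43.0, 22 and 64.6 RPKM in STAT3KO. Every STAT3KO library was above every other library, with replicate 3 the lowest of them, while WT and TLR9KO overlapped. STAT3KO averaged 46.8 ± 18.8 RPKM (SD, n = 4), 7.84 times the WT mean of 5.97 ± 3.55 RPKM (n = 3), a log2 difference of 2.85 ± 0.47 (95% interval 1.81 to 3.89; limma adjusted p = 0.000803). Compared with TLR9KO at 4.91 ± 2.41 RPKM it was 9.54 times as high, a log2 difference of 3.00 ± 0.44 (limma adjusted p = 0.00125). TLR9KO and WT differed by -0.15 ± 0.47 on the log2 scale with an interval from -1.18 to 0.89 (limma adjusted p = 0.838), which leaves room for a difference of either sign. The STAT3KO calls held under each of the 19 alternative settings tried, with log2 differences of 2.30 to 3.17 against WT and 2.79 to 3.31 against TLR9KO.

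In bulk libraries, a change in the number of cells of a type and a change in RNA per cell cannot be told apart. Summed macrophage markers (9 genes found, none below 1 RPKM in every library of a group) were 4208 to 4923 RPKM in WT, 4066 to 7073 in TLR9KO and 5853 to 7544 RPKM in STAT3KO, and 6 of the 9 were higher and 1 lower in STAT3KO against WT. Summed inflammatory monocyte markers were 222 to 444 RPKM in WT, 414 to 839 in TLR9KO and 592, 595, 2035 and 2183 RPKM in STAT3KO (replicates 4, 1, 3 and 2). Of the 5, only Ly6c2 was called in STAT3KO against WT, and it was higher. Ly6c2 alone was 1793 RPKM in STAT3KO replicate 3, and Chi3l3 was 1043 RPKM in STAT3KO replicate 2. Ccr2 was lower in STAT3KO than in TLR9KO (-1.13 on the log2 scale, limma adjusted p = 0.0316). Summed dendritic markers were 138 to 210 RPKM in WT, 78.5 to 149 in TLR9KO and 27.2 to 61.2 RPKM in STAT3KO, a sum that is mostly Itgax, which was lower in STAT3KO than in both other groups. The other dendritic markers were mixed. Zbtb46 was higher in STAT3KO than in TLR9KO (2.06 and 1.08 RPKM), and Flt3 averaged 0.842 RPKM in STAT3KO and 0.21 RPKM in WT. Xcr1 averaged 0.217 RPKM in STAT3KO and 0.12 RPKM in WT. Ccr7 (9.11 and 11.3 RPKM) and Clec9a (0.55 and 0.7 RPKM) averaged lower in STAT3KO than in WT. Summed neutrophil markers overlapped between the groups, at 56.7 to 171 RPKM in WT, 67.2 to 246 in TLR9KO, 79.4, 88.4 and 105 in STAT3KO replicates 1, 3 and 4, and 600 RPKM in STAT3KO replicate 2. None of the 7 tested passed in STAT3KO against WT, and 1, Retnlg, was higher in STAT3KO than in TLR9KO. The part of these markers in the level of any member was not tested.

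Other sources of RNA also moved with the groups. Summed erythroid markers were 42.6 to 169 RPKM in WT, 0.61 to 3.38 in TLR9KO and 2.79 to 49.9 RPKM in STAT3KO, and all 4 that were tested, of 9 listed, were lower than WT in both knockouts. Summed fibroblast markers were 1.34 to 3.32 RPKM in WT, 8.36 to 36.9 in TLR9KO and 12.0 to 26.4 RPKM in STAT3KO, with all 3 tested higher than WT in both knockouts. B cell markers summed to at most 0.39 RPKM and T and NK cell markers to at most 11.2 RPKM in any library. Endothelial markers were 7.80 to 22 RPKM in WT, 6.71 to 15.2 in TLR9KO and 4.53 to 8.02 RPKM in STAT3KO, where Pecam1 carried most of the fall (11.2 RPKM in WT and 3.65 in STAT3KO) and Cdh5 went the other way (0.477 and 1.04 RPKM). The part of any of these markers in the differences between groups was not tested.

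The patterns closest to Slc40a1 over the 11 libraries belonged to Agt, Gclm and Igf1, which encode angiotensinogen, a subunit of the enzyme that limits glutathione synthesis, and insulin-like growth factor 1. Likeness was the root mean square difference of log2(RPKM + 1) values centred on each gene's mean, and it was 0.68 for Agt, 0.68 for Gclm and 0.74 for Igf1, beside a spread of 1.54 for Slc40a1 itself. Gclm, for instance, averaged 11.3 ± 3.88 RPKM in WT, 11.2 ± 2.42 RPKM in TLR9KO and 40.1 ± 9.79 RPKM in STAT3KO. Igf1 averaged 10.1 ± 3.55, 9.64 ± 3.59 and 44.1 ± 17 RPKM in the same order of groups. Agt averaged 3.62 ± 1.98, 2.56 ± 0.921 and 12.2 ± 3.59 RPKM.

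**Figure D2:**
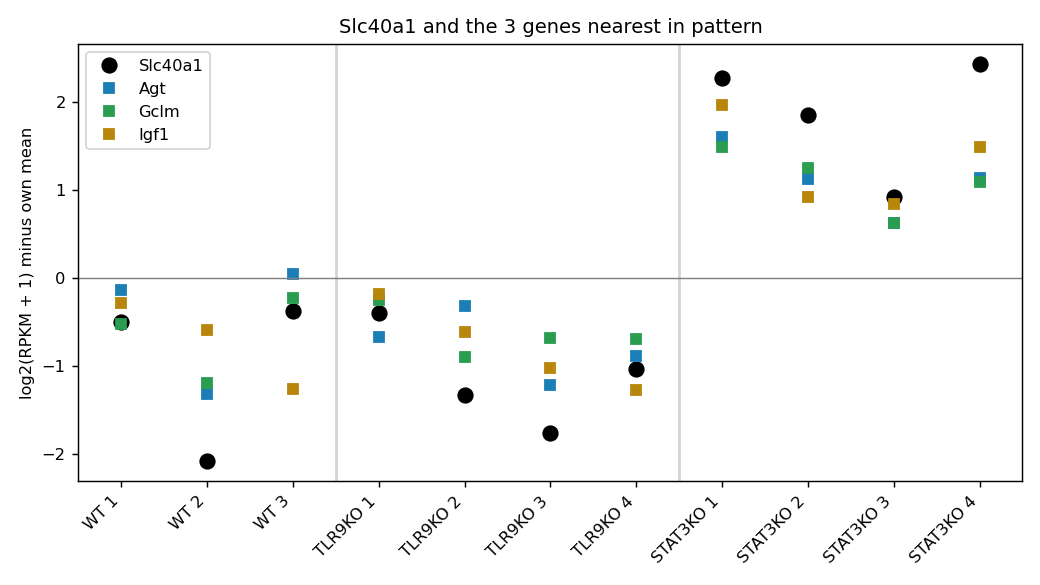
Centred log2(RPKM + 1) of Slc40a1 (black) and of its 3 nearest genes by pattern in each of the 11 libraries, with vertical lines between the groups. All 4 genes lie above their own mean in each STAT3KO library, and Slc40a1 has the widest swing (spread 1.54 on the log2 scale).

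Fth1 and Ftl1 encode the heavy chain of ferritin, which oxidises iron, and the light chain, which helps to form the mineral core. They ranked 1 and 2 of all genes tested by their mean over the 11 libraries, at 7173 and 7169 RPKM. Fth1 was 6134, 4134 and 7605 RPKM in the WT libraries, 6746, 4814, 4674 and 4293 RPKM in TLR9KO, and 12476, 11742, 7180 and 9103 RPKM in STAT3KO. STAT3KO replicate 3 lay below WT replicate 3, so STAT3KO and WT overlapped, whereas STAT3KO and TLR9KO did not. Its STAT3KO mean of 10125 ± 2440 RPKM (SD, n = 4) stood beside 5957 ± 1742 RPKM in WT, a log2 difference of 0.78 ± 0.26 (95% interval 0.21 to 1.35; limma adjusted p = 0.0313), and beside 5132 ± 1098 RPKM in TLR9KO, a difference of 0.97 ± 0.24 (limma adjusted p = 0.0159). The call against WT was lost with the GC and length correction (0.54, limma adjusted p = 0.12) and under 7 other settings, which included leaving out WT replicate 1 (limma adjusted p = 0.0649), WT replicate 2 (0.53, limma adjusted p = 0.131), STAT3KO replicate 1 (0.0817) or STAT3KO replicate 2 (0.0726).

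Ftl1 was 6778, 5357 and 7897 RPKM in the WT libraries, 7169, 4781, 5027 and 4822 RPKM in TLR9KO, and 10932, 9758, 8010 and 8329 RPKM in STAT3KO. All 4 STAT3KO libraries were above every WT and TLR9KO library, and TLR9KO replicate 1 stood above the other TLR9KO libraries. The means were 6677 ± 1273 RPKM in WT, 5450 ± 1151 RPKM in TLR9KO and 9257 ± 1351 RPKM in STAT3KO. The difference from WT of 0.48 ± 0.20 on the log2 scale did not pass the test (95% interval 0.04 to 0.92; limma adjusted p = 0.0736), and the difference from TLR9KO of 0.77 ± 0.19 did (limma adjusted p = 0.0137). The latter was lost with the GC and length correction (0.51, limma adjusted p = 0.073). Ftl2 is a near-identical copy of Ftl1, and how reads that map to both were counted was not given in these sources, so the level of either is uncertain.

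The ratio of the ferritin chains varied less than their levels. Fth1 was 0.88 ± 0.0981 times Ftl1 in WT, 0.942 ± 0.0484 times in TLR9KO and 1.08 ± 0.133 times in STAT3KO, as the mean ratio of RPKM over libraries. Within groups Fth1, Ftl1 and Slc40a1 shared some of their extremes. In WT all of them were lowest in replicate 2 and highest in replicate 3, in STAT3KO all were lowest in replicate 3, and in TLR9KO all were highest in replicate 1. The lowest TLR9KO library differed for each of the 3 genes, and the highest STAT3KO library was replicate 1 for both ferritin chains and replicate 4 for Slc40a1. Hmox1, the heme oxygenase that frees iron from heme, was also lowest in WT replicate 2 (408 RPKM) and STAT3KO replicate 3 (1089 RPKM) and highest in WT replicate 3 (1363 RPKM) and TLR9KO replicate 1 (969 RPKM), while its highest STAT3KO library was replicate 1, as for ferritin, and its lowest TLR9KO library replicate 3, as for Slc40a1.

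Tfrc, the transferrin receptor, was 16.4, 11.9 and 9.54 RPKM in the WT libraries, 9.33, 14.7, 7.19 and 11.3 RPKM in TLR9KO, and 10.0, 7.71, 7.67 and 7.15 RPKM in STAT3KO. All 3 groups overlapped, and STAT3KO had the narrowest range. The means were 12.6 ± 3.50, 10.6 ± 3.18 and 8.14 ± 1.29 RPKM in WT, TLR9KO and STAT3KO. None of the 3 comparisons passed the test, with -0.56 ± 0.22 for STAT3KO minus WT (95% interval -1.04 to -0.07; limma adjusted p = 0.0601), -0.24 for TLR9KO minus WT (limma adjusted p = 0.435) and -0.32 for STAT3KO minus TLR9KO (limma adjusted p = 0.281). STAT3KO minus WT lay close to the threshold and passed under 9 of the 19 alternatives. They included the GC and length correction (-0.79, limma adjusted p = 0.02) and leaving out WT replicate 3 (limma adjusted p = 0.0347) or STAT3KO replicate 1 (0.0483). It also passed without TLR9KO replicate 2 (limma adjusted p = 0.039) or 3 (0.0352), where the difference stayed at -0.56 and only its p-value moved. Without WT replicate 1 it was -0.36 (limma adjusted p = 0.24). Per library, the ratio of Tfrc to Slc40a1 RPKM, import receptor over exporter, was 1.14 to 6.32 in WT, 1.13 to 3.79 in TLR9KO and 0.111 to 0.349 in STAT3KO. The STAT3KO ratios lay below all others, and Slc40a1, the divisor, was highest there. The genes nearest to Tfrc in pattern were Enah, Slc25a13 and Asap2, with root mean square differences of 0.16, 0.17 and 0.18 beside an own spread of 0.36.

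Slc11a2 encodes DMT1, which carries ferrous iron out of the endosome. It was 16.4, 10.8 and 14.7 RPKM in the WT libraries, 11.8, 15.0, 12.1 and 13.2 RPKM in TLR9KO, and 12.4, 8.32, 11.0 and 12.4 RPKM in STAT3KO. The groups overlapped throughout, with means of 14.0 ± 2.86, 13.0 ± 1.46 and 11.0 ± 1.91 RPKM. The log2 differences were -0.31 for STAT3KO minus WT (95% interval -0.66 to 0.04; limma adjusted p = 0.134), -0.08 for TLR9KO minus WT (limma adjusted p = 0.736) and -0.23 for STAT3KO minus TLR9KO (limma adjusted p = 0.271). STAT3KO minus WT passed with median-ratio scaling (-0.42, limma adjusted p = 0.0384), with array weights (-0.34, limma adjusted p = 0.0372) and without WT replicate 2 (-0.47, limma adjusted p = 0.0315), and was -0.19 without WT replicate 1 (limma adjusted p = 0.408) or STAT3KO replicate 2 (limma adjusted p = 0.303).

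Slc11a1 encodes NRAMP1, which pumps divalent metals out of the phagosome of macrophages and is known from resistance to intracellular microbes in mice. It was 126, 133 and 183 RPKM in the WT libraries, 101, 91.6, 164 and 136 RPKM in TLR9KO, and 180, 167, 199 and 204 RPKM in STAT3KO. STAT3KO lay above every TLR9KO library but overlapped WT, whose replicate 3 reached 183 RPKM. The STAT3KO mean of 187 ± 17.4 RPKM was higher than the TLR9KO mean of 123 ± 33.1 RPKM by 0.64 ± 0.18 on the log2 scale (limma adjusted p = 0.0291), while the WT mean of 147 ± 31.3 RPKM did not differ by the test from STAT3KO (0.36 ± 0.20, interval -0.07 to 0.79, limma adjusted p = 0.161) or from TLR9KO (-0.28, limma adjusted p = 0.313). The call against TLR9KO was lost under 7 of the 19 alternatives, among them leaving out TLR9KO replicate 1 or 2 or STAT3KO replicate 1, 3 or 4, with limma adjusted p of 0.0524 to 0.0794. Slc11a1 RPKM was 10.8 ± 2.72 times that of Slc11a2 in WT, 9.62 ± 3.14 times in TLR9KO and 17.3 ± 2.35 times in STAT3KO. Its nearest genes in pattern were Ptk2b, Rasgrp2 and 4632428N05Rik, with root mean square differences of 0.17, 0.18 and 0.18 beside an own spread of 0.37.

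Cp encodes ceruloplasmin, a copper ferroxidase that works with ferroportin, and was the least expressed member. It was 1.23, 1.24 and 1.09 RPKM in the WT libraries, 2.51, 2.49, 2.43 and 1.96 RPKM in TLR9KO, and 1.80, 1.7, 1.40 and 2.23 RPKM in STAT3KO. Every knockout library was above every WT library, and the knockouts overlapped each other. The TLR9KO mean of 2.35 ± 0.261 RPKM was 1.98 times the WT mean of 1.19 ± 0.0839 RPKM, a log2 difference of 0.61 ± 0.11 (limma adjusted p = 0.00258), and the STAT3KO mean of 1.78 ± 0.343 RPKM was 1.5 times it, a difference of 0.34 ± 0.11 (limma adjusted p = 0.0284). STAT3KO minus TLR9KO was -0.27 and did not pass (limma adjusted p = 0.0801). With the GC and length correction neither comparison with WT passed, at 0.26 for TLR9KO (limma adjusted p = 0.111) and 0.14 for STAT3KO (limma adjusted p = 0.288). The STAT3KO call against WT was lost under 9 of the 19 alternatives. They included median-ratio scaling (limma adjusted p = 0.0573) and leaving out WT replicate 1 (limma adjusted p = 0.0613), WT replicate 3 (0.0894), STAT3KO replicate 1 (0.0603) or STAT3KO replicate 4 (0.0738).

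Aco1 encodes IRP1, which is a cytosolic aconitase when it carries an iron-sulfur cluster and binds the hairpins when it does not. It was 25.7, 27.3 and 19.9 RPKM in the WT libraries, 15.8, 18.3, 18.7 and 18.2 RPKM in TLR9KO, and 16.5, 16, 14.9 and 17 RPKM in STAT3KO. All 8 knockout libraries lay below the lowest WT library, and the knockouts overlapped. The mean was 24.3 ± 3.89 RPKM in WT, 17.7 ± 1.35 RPKM in TLR9KO and 16.1 ± 0.904 RPKM in STAT3KO, so that the log2 difference from WT was -0.42 ± 0.11 in TLR9KO (limma adjusted p = 0.0132) and -0.56 ± 0.11 in STAT3KO (limma adjusted p = 0.00205). STAT3KO minus TLR9KO was -0.13, with an interval of -0.35 to 0.09 (limma adjusted p = 0.363). The STAT3KO call held under each of the 19 alternatives, and the TLR9KO call was lost with the GC and length correction (-0.28, limma adjusted p = 0.117) and without WT replicate 1 (-0.38, limma adjusted p = 0.0609).

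Ireb2 encodes IRP2, which is degraded when iron is plentiful. It was 5.16, 6.67 and 5.15 RPKM in the WT libraries, 9.03, 8.24, 7.86 and 7.64 RPKM in TLR9KO, and 5.67, 4.46, 5.41 and 5.73 RPKM in STAT3KO. TLR9KO lay above every other library, and WT and STAT3KO overlapped. The TLR9KO mean of 8.19 ± 0.611 RPKM was 1.45 times the WT mean of 5.66 ± 0.875 RPKM, a log2 difference of 0.47 ± 0.11 (limma adjusted p = 0.00822), and the STAT3KO mean of 5.32 ± 0.588 RPKM was below TLR9KO by -0.54 ± 0.10 (limma adjusted p = 0.0043) and differed from WT by -0.07 ± 0.11 (interval -0.31 to 0.17, limma adjusted p = 0.616). After the GC and length correction the TLR9KO difference from WT was 0.0016 (limma adjusted p = 0.989), the STAT3KO difference from WT was -0.28 and passed (limma adjusted p = 0.00428), and STAT3KO minus TLR9KO still passed at -0.29 (limma adjusted p = 0.00634). The ratio of Aco1 to Ireb2 RPKM was 3.87 to 4.98 in WT, 2.75 to 3.58 in STAT3KO and 1.74 to 2.38 in TLR9KO, with no overlap between the groups. This ratio uses uncorrected values of genes that differ in GC content (52.1% for Aco1 and 39.0% for Ireb2).

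**Figure D3:**
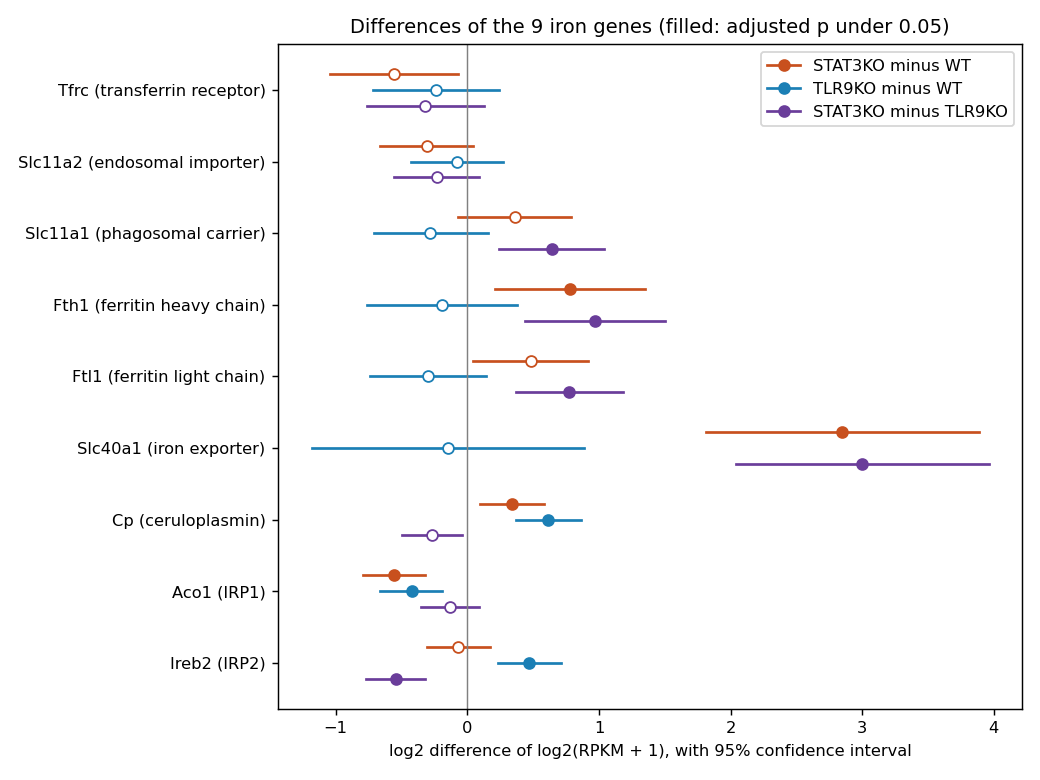
Log2 differences of log2(RPKM + 1) with 95% confidence intervals for the 9 iron genes in the 3 comparisons, filled where the limma adjusted p is under 0.05. Slc40a1 stands at 2.85 and 3.00 in the comparisons of STAT3KO with WT and TLR9KO, and the other members lie within 1 log2 unit of 0.

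The members differed in base composition. The GC content of the longest coding transcript was 39.0% for Ireb2, 39.8% for Tfrc, 41.7% for Cp and 43.5% for Slc40a1, then 50.4% for Slc11a2, 52.1% for Aco1, 53.6% for Fth1, 55.1% for Slc11a1 and 58.1% for Ftl1. Correcting each library for its trends with GC content and length removed the 3 member calls of TLR9KO against WT (Cp, Aco1 and Ireb2), those of Fth1 and Cp in STAT3KO against WT, and those of Slc11a1 (0.53, limma adjusted p = 0.0648) and Ftl1 in STAT3KO against TLR9KO. Slc40a1 (2.63, limma adjusted p = 0.00251) and Aco1 (-0.49, limma adjusted p = 0.00719) kept theirs in STAT3KO against WT. Whether the uncorrected or the corrected value is closer to the RNA in the cells was not tested.

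**Figure D4:**
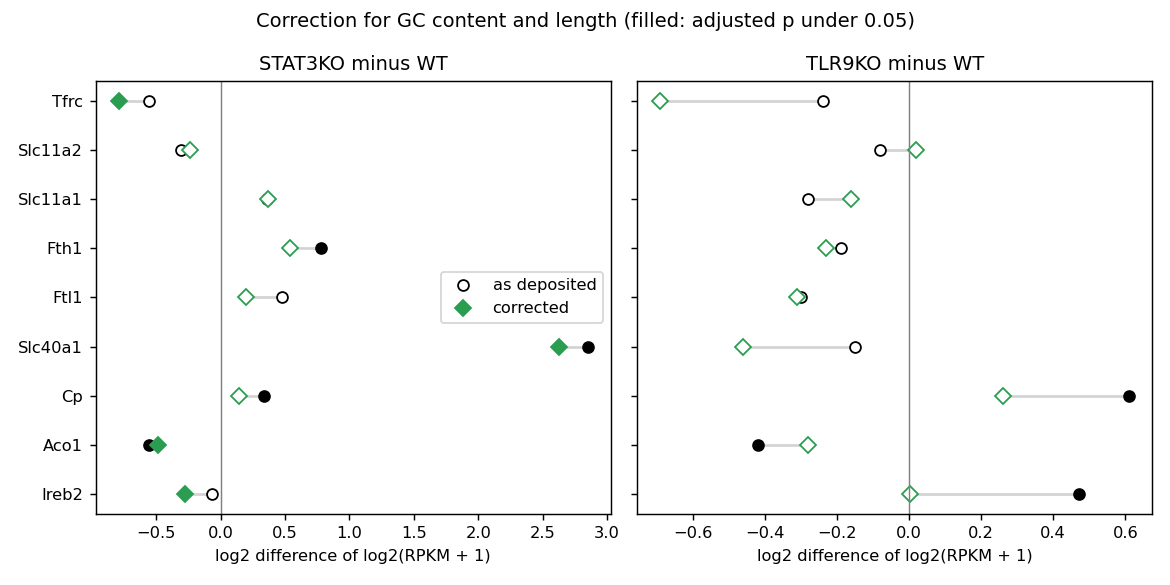
Log2 differences of the 9 iron genes as deposited (black circles) and after the GC and length correction (green diamonds), filled where the limma adjusted p is under 0.05, with an axis of its own for each comparison. In TLR9KO minus WT, Ireb2 moves from 0.47 to 0.0016 and none of the members is filled after correction, while Slc40a1 in STAT3KO minus WT moves from 2.85 to 2.63.

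Of 52 other iron and heme genes listed, 49 were in the files and 35 were tested. In STAT3KO against WT 8 rose and 8 fell, with a median log2 difference of 0.23 beside 0.10 for all genes. In TLR9KO against WT 2 rose and 6 fell, with a median of -0.02 beside 0.04, and in STAT3KO against TLR9KO 7 were higher and 3 lower, with a median of 0.14 beside 0.06. Set against the 44.0%, 30.6% and 22.8% of all genes called, 16 of 35 is near background, 8 of 35 below it and 10 of 35 somewhat above it, differences that were not tested. Under median-ratio scaling of the libraries these counts were 5 and 9, 1 and 8, and 7 and 3.

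Among genes of heme and hemoglobin uptake and breakdown, 3 of 8 tested rose and 1 fell in STAT3KO against WT, where 29.2% of all genes rose and 14.8% fell, so these counts are near background. In STAT3KO against TLR9KO 4 of the 8 were higher (Blvrb, Hmox1, Hmox2 and Slc48a1), where 13.4% of all genes were. This difference was not tested. Blvrb, a biliverdin and flavin reductase, averaged 65.1 ± 12.8 RPKM in WT, 94.0 ± 22.9 RPKM in TLR9KO and 141 ± 12.5 RPKM in STAT3KO, and its difference of 1.12 ± 0.17 between STAT3KO and WT passed (limma adjusted p = 0.000577). Its rise of 0.51 in TLR9KO against WT (limma adjusted p = 0.0459) was lost under 14 of the 19 alternatives, and WT and TLR9KO overlapped. Blvra, the biliverdin reductase that makes bilirubin, rose by 0.75 (limma adjusted p = 0.00142), and Hmox2, the constitutive heme oxygenase, by 0.60 (limma adjusted p = 0.00183). With the GC and length correction these were 0.33 (limma adjusted p = 0.0454) and 0.34 (limma adjusted p = 0.0205). Blvrb was also higher in STAT3KO than in TLR9KO (0.61, limma adjusted p = 0.0216). That call was lost under 6 of the 19 alternatives, including the GC and length correction (0.35, limma adjusted p = 0.112). The Hmox2 call in the same comparison (0.41, limma adjusted p = 0.0193) was lost under 2. Hmox1 was 1089 to 2546 RPKM in STAT3KO, 406 to 969 RPKM in TLR9KO and, in WT, 408 to 1363 RPKM. It overlapped between STAT3KO and WT (1.09 ± 0.43, limma adjusted p = 0.062; 0.0341, 0.0456 and 0.0347 without WT replicate 3, TLR9KO replicate 1 or STAT3KO replicate 3, and 0.57 with limma adjusted p = 0.257 without WT replicate 2) and was higher in STAT3KO than in TLR9KO (1.65 ± 0.40, limma adjusted p = 0.0148). Slc48a1, a heme transporter of the phagolysosome, was also higher in STAT3KO than in TLR9KO (0.73, limma adjusted p = 0.00956). Lrp1, a receptor for the heme carrier hemopexin among other ligands, fell in TLR9KO against WT (-0.70, limma adjusted p = 0.0104), a call lost with the GC and length correction (-0.17, limma adjusted p = 0.328). It also fell in STAT3KO against WT (-0.47, limma adjusted p = 0.0443), a call lost under 11 of the 19 alternatives. Cd163, the hemoglobin scavenger receptor, named after its values were seen, did not pass in any comparison (limma adjusted p = 0.378 to 0.895).

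Outside the 9 members, 9 genes of iron uptake and reduction were listed, 8 were in the files and 3 were tested. The others in the files averaged under 1 RPKM and have no result. The 3 tested fell in STAT3KO against WT, where 14.8% of all genes fell, while the uptake members Tfrc and Slc11a2 did not pass. Slc39a14 (ZIP14), a carrier of iron not bound to transferrin, was 12.8 to 17.2 RPKM in WT and 4.82 to 6.64 RPKM in STAT3KO, a log2 difference of -1.31 ± 0.23 (limma adjusted p = 0.00104). Its level in TLR9KO was 5.59 to 13.5 RPKM and overlapped both, and its calls in the comparisons with TLR9KO (limma adjusted p = 0.05 after rounding against WT, and 0.0442 against STAT3KO) were lost under 14 and 11 of the 19 alternatives, 9 of them in each case the removal of 1 library. Steap3, an endosomal ferrireductase, fell in STAT3KO (-0.64, limma adjusted p = 0.00136) and TLR9KO (-0.66, limma adjusted p = 0.00229). Trf, the gene of transferrin, was named after its values were seen, as it completes the 3 tested: it fell in STAT3KO against WT (-0.74 ± 0.22, limma adjusted p = 0.0198), although leaving out WT replicate 1 ended the call (-0.50, limma adjusted p = 0.0904).

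Among regulators and iron handling genes, Fbxl5, the ubiquitin ligase subunit that targets IRP2 for degradation, was 16.4 to 24.6 RPKM in STAT3KO, 27.4 to 35.8 RPKM in WT and 27.9 to 42.4 RPKM in TLR9KO. It fell in STAT3KO against WT (-0.63, limma adjusted p = 0.00836) and was lower than in TLR9KO (-0.75, limma adjusted p = 0.00591). Bach1, a heme-sensing repressor of Hmox1 and ferritin genes, was lower in STAT3KO than in TLR9KO (-0.57, limma adjusted p = 0.038), which 10 of the 19 alternatives lost, including the removal of any TLR9KO library or of STAT3KO replicate 1, 2 or 4. Its fall in STAT3KO against WT (-0.51, limma adjusted p = 0.0476) was lost under 14 of the 19. Pcbp2, an iron chaperone and RNA-binding protein, fell in STAT3KO (-0.45, limma adjusted p = 0.00232) and TLR9KO (-0.44, limma adjusted p = 0.00462). Ncoa4, the receptor for ferritin breakdown and likewise named after its values were seen, did not pass in any comparison, with group means of 61.0, 58.6 and 64.1 RPKM in WT, TLR9KO and STAT3KO. Spic, a transcription factor of iron-recycling macrophages in mice, was also named after its values were seen: it was 0.31 to 0.64 RPKM in WT, 0.36 to 1.06 in TLR9KO and 3.48 to 7.43 RPKM in STAT3KO, a log2 difference from WT of 1.89 ± 0.22 (limma adjusted p = 9.96e-05). Ftl2, the ferritin light chain copy, was higher in STAT3KO than in TLR9KO (0.90, limma adjusted p = 0.00863). It also rose in STAT3KO against WT (0.66, limma adjusted p = 0.024), where Ftl1 did not pass. That call was lost under 8 of the 19 alternatives, including the GC and length correction (0.29, limma adjusted p = 0.266).

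Among genes of mitochondrial iron use, 3 of 11 tested rose and 1 fell in STAT3KO against WT, and 1 rose and 1 fell in TLR9KO against WT. These counts were near or below the shares of all genes (29.2% and 14.8%, and 20.0% and 10.6%). Iscu, the scaffold on which iron-sulfur clusters are built, rose in STAT3KO (0.81, limma adjusted p = 0.000664) and in TLR9KO (0.47, limma adjusted p = 0.0173), the latter lost without WT replicate 1 (0.43, limma adjusted p = 0.0712) or WT replicate 3 (0.44, limma adjusted p = 0.0632). Alas1, the first enzyme of heme synthesis outside red cells, was 45.6 to 58.2 RPKM in WT, 16.4 to 30.0 in TLR9KO and 23.9 to 36.4 RPKM in STAT3KO. It fell against WT by 1.08 ± 0.19 on the log2 scale in TLR9KO (limma adjusted p = 0.00223). In STAT3KO it also fell against WT (-0.69, limma adjusted p = 0.0132). The STAT3KO call was lost under 2 of the 19 alternatives, among them leaving out WT replicate 1 (-0.6, limma adjusted p = 0.0576). TLR9KO and STAT3KO did not differ by the test (0.39, limma adjusted p = 0.134).

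**Figure D5:**
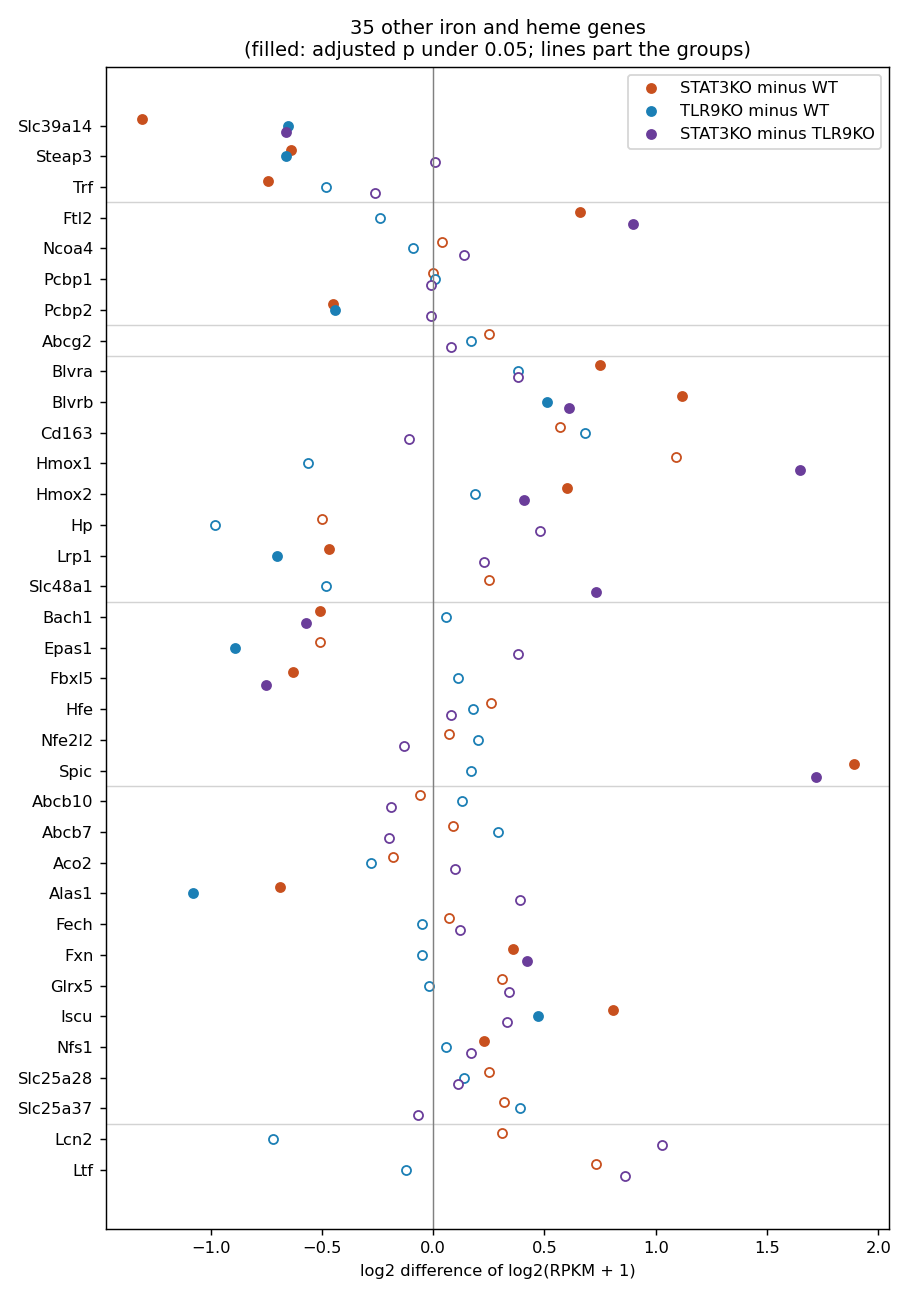
Log2 differences of log2(RPKM + 1) of the 35 other iron and heme genes tested in the 3 comparisons, filled where the limma adjusted p is under 0.05, with horizontal lines between gene groups. The widest called differences are those of Spic (1.89 in STAT3KO minus WT and 1.72 in STAT3KO minus TLR9KO), then Hmox1 at 1.65 in STAT3KO minus TLR9KO and Slc39a14 at -1.31 in STAT3KO minus WT.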

How the data were processed

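The authors deposited 1 RPKM value per gene symbol and library, per the file headers; for TLR9KO replicate 4 the header gives no unit, but the range of its values matches the others. Build mm9, TopHat 1.3.1, Bowtie 0.12.7, CASAVA 1.7 and Partek are named in the submitters' processing notes; sources used here do not give the annotation or the handling of reads with several matches. RPKM are not counts, so no count model was used. Values were analysed as log2(RPKM + 1) in 10557 genes averaging at least 1 RPKM, without further scaling. Group means of all 11 libraries were fitted with limma 3.58.1 in R 4.3.3 (eBayes with trend, two-sided, Benjamini-Hochberg over the genes tested, threshold 0.05), after a test on simulated data. Depth was estimated from the value steps of microRNA genes and was used for description only. For the GC and length correction, splines with 5 degrees of freedom were fitted per library to transcripts from GENCODE M21, matched for 98.9% of genes. The members and lists were chosen with earlier results of these data known. Genes named from the wider list are up to 4 called in each direction per comparison, with the smallest p and a higher group mean of at least 5 RPKM, and for 3 members the 3 genes nearest in pattern; the text marks iron genes named outside this rule. The alternatives were another pseudocount (0.1), no filter, median-ratio scaling, the GC and length correction, a replicate block, both together, array weights, a fit of only the 2 groups compared, and leaving out each library. Leaving out a library outside the 2 groups compared keeps their difference and can change only its error and p-values.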

Additional observations from a re-analysis of the deposited data

Results flagged for a closer look

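Of 88 groups of 4 libraries examined among the members and the other iron and heme genes tested, 7 held a library far from the other 3 by a rule that chance alone meets in about 1 in 20 groups. Of these, 4 were in STAT3KO replicate 2, the library with the highest neutrophil marker sum. There Lcn2, a siderophore-binding protein of neutrophils, was 57.95 RPKM against 0.57 to 1.09 RPKM in the other STAT3KO libraries, and Ltf, the iron-binding lactoferrin of neutrophil granules, was 20.2 RPKM against 0.15 to 0.25 RPKM. Hp, haptoglobin, was 48.2 RPKM there against 5.16 to 8.20 RPKM, and Cd163 was 6.51 RPKM against 2.84 to 3.33 RPKM. The part of neutrophil RNA in these values was not tested. Ftl1 was 7169 RPKM in TLR9KO replicate 1, where the other TLR9KO libraries were 4781 to 5027 RPKM. Ftl2, which can share reads with Ftl1, was 3091 RPKM in the same library, against 2024 to 2106 RPKM in the others. Cp was 1.96 RPKM in TLR9KO replicate 4, below the other TLR9KO libraries at 2.43 to 2.51 RPKM. No explanation was tested.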

How the results depend on the processing

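The Slc40a1 calls in both STAT3KO comparisons and the Aco1 call in STAT3KO against WT kept their direction and passed under all 19 alternatives. So did the Ireb2 call in STAT3KO against TLR9KO, with log2 differences of -0.62 to -0.29. Genes called in STAT3KO against WT (4648) stayed within 1.5 times of that number. For TLR9KO against WT (3229 genes) the GC and length correction gave 1568, the replicate block with that correction 935, and leaving out a library 1989 (WT replicate 1) to 3595. For STAT3KO against TLR9KO (2409 genes) array weights gave 3807 and leaving out a library 1581 (TLR9KO replicate 4) to 2709. Median-ratio scaling changed the split of higher and lower calls from 3083 and 1565 to 2336 and 2207, from 2107 and 1122 to 1780 and 1504, and from 1410 and 999 to 1008 and 1194 in the 3 comparisons. Of the other iron and heme genes, 16 were called in STAT3KO against WT, and 10 with the block and correction (leaving out a library gave 11 to 18). In TLR9KO against WT 8 were called, with 5 under no filter, 5 under the correction, 3 with the block and correction, 14 with array weights and 4 (without WT replicate 1) to 12 leaving out a library. In STAT3KO against TLR9KO 10 were called, with 5 under the block and correction, 16 with array weights and 5 (without TLR9KO replicate 4) to 11 leaving out a library, with 6 without STAT3KO replicate 1. The TLR9KO difference of Ireb2 from WT changed sign to -0.00087 (limma adjusted p = 0.995) with the replicate block and correction. The cause of these changes was not tested. The replicate block alone gave 4074, 2662 and 1879 genes, and lost Cp in STAT3KO against WT (limma adjusted p = 0.0733). The deviations of same-numbered libraries correlated at -0.291 to 0.492 over 10 pairs, and those of differently numbered libraries at -0.608 to 0.533 over 30 pairs. The ranges overlap, so they do not show that the numbers pair the libraries, and they cannot exclude it. Without the filter, Fth1 and Ftl1 in STAT3KO against TLR9KO gave limma adjusted p of 0.203 and 0.285. Depth limits Cp most, as 1.09 RPKM is its lowest value.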
